A study of Mus musculus with 17 samples.

Results

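The genes followed here are the 10 that write, copy, oxidise, excise and read 5-methylcytosine in DNA: the methyltransferases Dnmt1, Dnmt3a and Dnmt3b, the cofactors Dnmt3l and Uhrf1, the oxidases Tet1, Tet2 and Tet3, the glycosylase Tdg and the methyl-CpG reader Mbd2. They were picked by gene symbol for their role. All 10 were listed in both count tables, among 26029 genes in model 1 and 24659 in model 2. In each model 9 of the 10 passed the filter on low counts and Dnmt3l did not, with 0 to 7 counts per library.

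RNA-seq was performed on erythroid blasts from mice that carry a Spi1 transgene, which encodes the transcription factor SPI1 (PU.1), and the study asked what loss of FANCA, a Fanconi anaemia protein of DNA crosslink repair, does to the disease. There were 17 libraries, 1 per mouse, in 5 groups, and by the labels each group carried the transgene, so that there was no group without it. In model 1 (strain DBA2JxFVB/N) the TgSpi1FA+/+ preleukaemic group held 4 animals (preleukemic_445, preleukemic_479, preleukemic_451 and preleukemic_138), the TgSpi1FA-/- preleukaemic group 3 (preleukemic_77, preleukemic_224 and preleukemic_40) and the TgSpi1FA-/- leukaemic group 3 (leukemic_26, leukemic_28 and leukemic_39), each named here by the end of its sample title. In model 2 (strain DBA2J) all were TgSpi1FA+/+, 4 preleukaemic (preleukemic_633, preleukemic_663, preleukemic_812 and preleukemic_837) and 3 leukaemic (leukemic_601, leukemic_606 and leukemic_921). Preleukaemic blasts depend on erythropoietin (EPO) and form no tumours, whereas leukaemic blasts form tumours on transfer, and the leukaemic blasts of model 2 came out of serial transfusions. All blasts were kept in culture with EPO before extraction. The 2 models also differed in RNA input and fragmentation (400 ng and 8 min in model 1, 300 ng and 2 min in model 2). Model 1 had no TgSpi1FA+/+ leukaemic group and model 2 no TgSpi1FA-/- group, so that genotype, model, strain and library protocol cannot be told apart between the leukaemic changes of the models.

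For preleukemic_77, preleukemic_224 and preleukemic_40 the column names and the source field say leukaemic, whereas the titles and characteristics say preleukaemic, and they were taken as preleukaemic. Libraries held 29964576 to 38217654 counts in model 1 and 37726753 to 40514205 in model 2. Fanca was at 0.615 to 2.30 CPM (counts scaled to a common library size after TMM normalisation) in the 6 TgSpi1FA-/- libraries and at 28.1 to 83.5 CPM in the 11 others. Spi1 was at 630 CPM in leukemic_26, 220 CPM in leukemic_28 and 3.88 CPM (153 counts) in leukemic_39. So leukemic_39 had little RNA of the gene the transgene carries. The 7 preleukaemic libraries of model 1 were at 467 to 1061 CPM. The TgSpi1FA-/- ones among them, at 670 to 781 CPM, lay above each TgSpi1FA-/- leukaemic library. In model 2 Spi1 was at 103 to 188 CPM in leukaemic and 215 to 332 CPM in preleukaemic cells, also without overlap. Of 12 erythroid markers, 11 or 12 were over 3 counts in each group, and the summed myeloid, B and T lymphoid lists reached at most 1.78 CPM in a library. Libraries preleukemic_445 and preleukemic_479 were closer to each other (chi-square per degree of freedom 8.53) than the other pairs within groups of model 1 (114 to 372), and differed by more than sampling noise. In a second count table of model 1, this pair was at 350 and the other pairs within groups at 393 to 742. Both libraries were kept, as 2 mice.

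DNA methylation is copied after replication by DNMT1, which UHRF1 brings to hemimethylated CpG sites, and is set at new sites by DNMT3A and DNMT3B with the help of the catalytically inactive DNMT3L. TET enzymes oxidise 5-methylcytosine, TDG cuts out the most oxidised forms, and MBD2 binds methylated CpG and brings the NuRD complex, which represses transcription. In the erythroid lineage the genome loses methylation as precursors divide and mature, and TET2 and DNMT3A are among the genes most often mutated in human myeloid malignancies.

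Levels between the genes were compared per length, as CPM per kb of merged exons. In TgSpi1FA+/+ preleukaemic cells of model 1, Dnmt1 stood first at 85.7 ± 7.49 CPM per kb (SD, n = 4), above Uhrf1 at 64.2 ± 9.11 and Mbd2 at 62.0 ± 6.14, whose ranges overlapped each other but not that of Dnmt1. Tet3 followed at 11.1 ± 1.141, then Dnmt3a at 3.64 ± 1.73, Tet2 at 2.26 ± 0.426 and Dnmt3b at 1.30 ± 0.630, where Dnmt3a overlapped Tet2 and Tet2 overlapped Dnmt3b. Tet1 was at 0.0376 ± 0.0318 CPM per kb and Dnmt3l at 0.00238 ± 0.00475. So the maintenance genes and the reader were the abundant members, the oxidases were led by Tet3, and the de novo genes were low. In model 2 preleukaemic cells Mbd2 (52.0 ± 5.40 CPM per kb), Dnmt1 (48.2 ± 7.21) and Uhrf1 (44.7 ± 10.8) overlapped at the top. In model 2 leukaemic cells Dnmt1 was at 17.1 ± 2.71 CPM per kb (n = 3), below and apart from Uhrf1 at 28.4 ± 7.25 and Mbd2 at 28.7 ± 7.04.

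**Figure D1:**
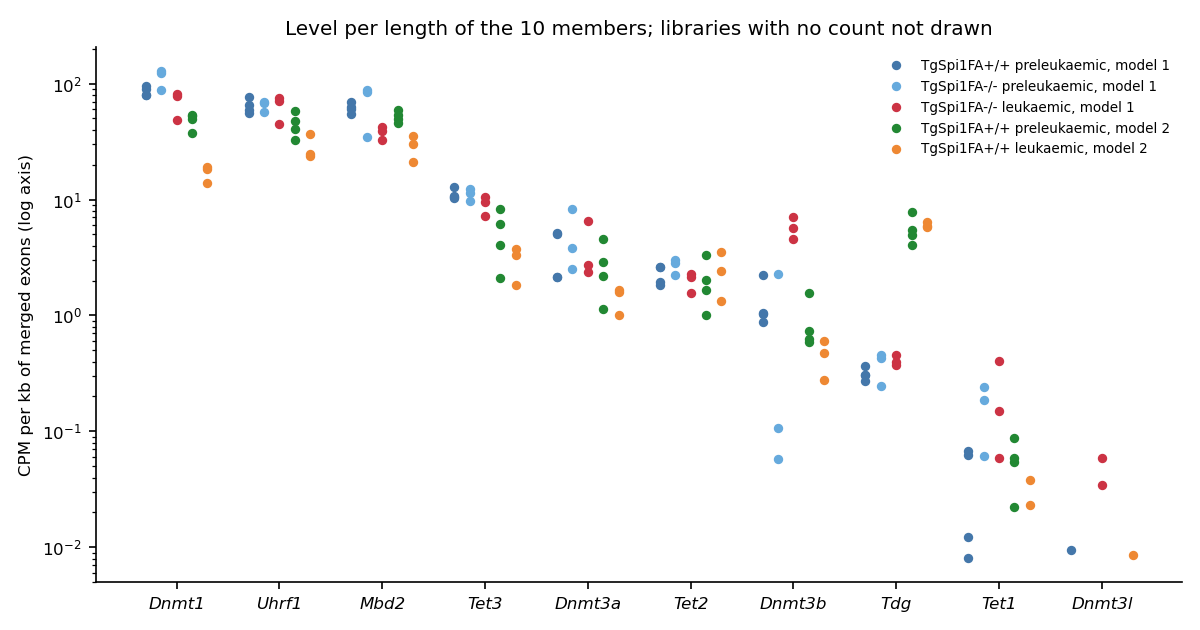
Level per length of the 10 members, as CPM per kb of merged exons on a log axis; each point is 1 library, coloured by group, and libraries with no count are not drawn. Dnmt1, Uhrf1 and Mbd2 lie highest, Tet1 and Dnmt3l lowest, and Tdg lies lower in each library of model 1 than in any library of model 2.

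No member passed the test (edgeR quasi-likelihood, with a Benjamini-Hochberg adjusted p below 0.05 together with a 1.5-fold difference or more) in any of the comparisons. For TgSpi1FA-/- leukaemic against TgSpi1FA-/- preleukaemic cells, 0 of the 9 tested members were called, against 13.3% of all 13393 genes tested. In that comparison 3 members (Dnmt1, Dnmt3b and Mbd2) had an unadjusted p under 0.05, against 32.4% of all genes. DESeq2 called 1 member, Dnmt3b, against 19.8% of all genes, and the groups did not overlap in 2 members, against 38.7%. In model 2, leukaemic against preleukaemic, edgeR called 0 members and 0% of all 12970 genes, where the smallest adjusted p of any gene was 0.162. Here 3 members (Dnmt1, Uhrf1 and Mbd2) had an unadjusted p under 0.05, against 19.9% of all genes. DESeq2 called 1 member, Dnmt1, against 3.45%, and 2 members did not overlap between the groups, against 20.1%.

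For TgSpi1FA-/- against TgSpi1FA+/+ preleukaemic cells edgeR called 0 members, against 0.00747% of all genes, 1 gene in number. Tet1 was the member with an unadjusted p under 0.05, against 8.65% of all genes. DESeq2 called 0 members, against 1.76%, and no member had groups apart, against 8.53%. The log2 fold changes of the other 8 tested members lay between -0.66 (Dnmt3b) and 0.42 (Dnmt3a), with Dnmt1 at 0.40 and a 95% interval from -0.04 to 0.85, and their adjusted p between 0.606 and 0.988 (edgeR). For TgSpi1FA-/- leukaemic against TgSpi1FA+/+ preleukaemic cells, which shares its libraries with the other comparisons of model 1, edgeR called 0 members, against 7.01%. Tet1 and Mbd2 had an unadjusted p under 0.05, against 27.2%, DESeq2 called Tet1, against 14.8%, and 3 members (Dnmt3b, Tdg and Mbd2) had groups apart, against 25.7%. The difference between the leukaemic changes of the models was tested as an interaction over 14597 genes. It called 0 members, against 4.61%, with an unadjusted p under 0.05 for Dnmt1 and Dnmt3b, against 25.8%, and DESeq2 called Dnmt3b, against 13.5%. With 0 members called in each comparison, the share of members in edgeR could only be at or below the background. Where edgeR called 0% or 0.00747% of all genes, this count could not set the list apart.

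**Figure D2:**
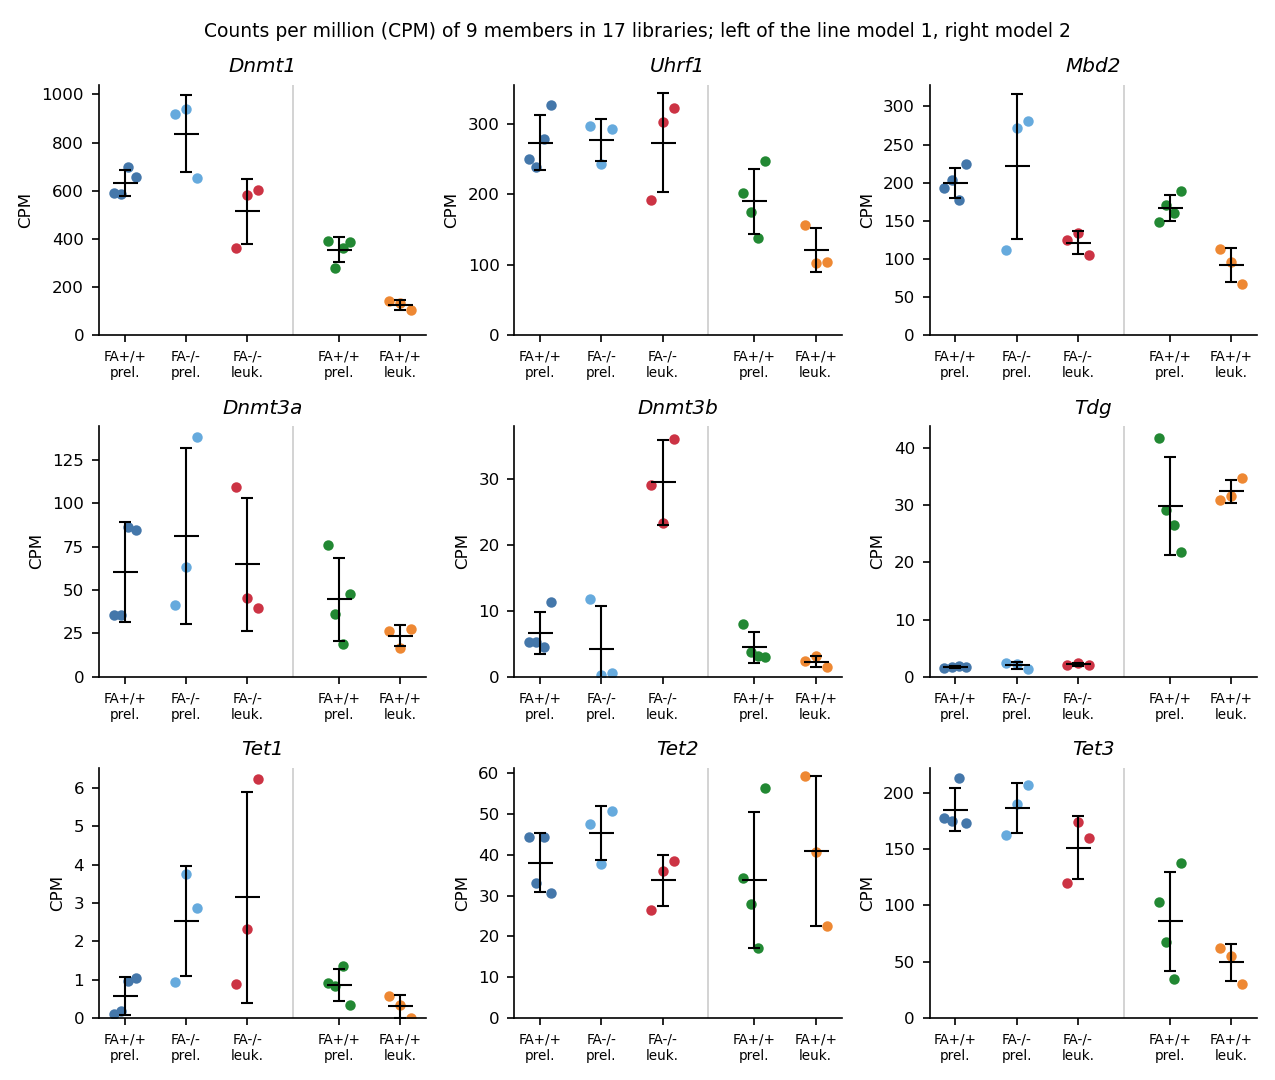
CPM of the 9 tested members in each of the 17 libraries, with the mean and SD of each group; prel. is preleukaemic, leuk. leukaemic, and the grey line parts model 1 (left) from model 2 (right). Dnmt1 lies lower in the leukaemic group of both models, and Dnmt3b lies highest in the TgSpi1FA-/- leukaemic group, at 23.3 to 36.1 CPM.

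Dnmt1 (GRCm38 chromosome 9, 20907209 to 20959888, minus strand) encodes the maintenance methyltransferase. It was at 589, 585, 698 and 658 CPM in TgSpi1FA+/+ preleukaemic cells of model 1, at 916, 941 and 654 CPM in TgSpi1FA-/- preleukemic_77, preleukemic_224 and preleukemic_40, and at 360, 580 and 602 CPM in TgSpi1FA-/- leukemic_26, leukemic_28 and leukemic_39. The 3 leukaemic libraries were all below the 3 TgSpi1FA-/- preleukaemic ones, with preleukemic_40 and leukemic_39 nearest to each other. The log2 fold change was -0.70 ± 0.22 (SE, edgeR), 1.63-fold lower, with an adjusted p of 0.0577, between 0.0547 and 0.157 over its alternatives, so that it did not pass. Against TgSpi1FA+/+ preleukaemic cells the leukaemic libraries overlapped, with a log2 fold change of -0.30 and an adjusted p of 0.374.

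In model 2, Dnmt1 was at 392, 278, 364 and 389 CPM in the preleukaemic libraries and at 141, 134 and 103 CPM in the leukaemic ones. All 3 leukaemic libraries were well below the lowest preleukaemic one, preleukemic_663. The log2 fold change was -1.50 ± 0.21, 2.82-fold lower, with an unadjusted p of 0.000101 (edgeR) and an adjusted p of 0.162. That is the smallest adjusted p in this model, and other genes shared it, among them Mbd2 at an unadjusted p of 0.00404 (edgeR). For Dnmt1, DESeq2 gave the same log2 fold change and an adjusted p of 3.83e-05. Over all alternatives the adjusted p of Dnmt1 lay between 3.83e-05 and 0.404. The interaction, model 1 change minus model 2 change, was 0.78 ± 0.29 on the log2 scale, with an adjusted p of 0.112 (edgeR). Without leukemic_26 it was 0.98 with an adjusted p of 0.0424, and over its alternatives the adjusted p lay between 0.0424 and 0.23. In bulk samples a lower share of cells that express a gene and less RNA per cell cannot be told apart.

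DNMT1 acts in S phase, so its transcript was also set against 16 genes of S phase and proliferation (Mcm2 to Mcm7, Rrm1, Rrm2, Mki67 and others), a ratio chosen after the values had been seen. In model 2 there were 78.8, 56.2, 85.4 and 80.8 CPM of Dnmt1 per 1000 CPM of that list in preleukaemic cells, and 29.7, 34.4 and 26.6 in leukaemic cells. The groups did not overlap (exact two-sided permutation test, p = 0.0286, the smallest that 35 arrangements can give, adjusted p = 0.129 over 18 such tests). In model 1 the ratio was 133, 144 and 96.1 in TgSpi1FA-/- preleukaemic cells and 75.2, 95.2 and 88.3 in TgSpi1FA-/- leukaemic cells, again without overlap (exact permutation p = 0.1, the smallest that 20 arrangements can give). TgSpi1FA+/+ preleukaemic cells of model 1 were at 85.4 to 95.5, below the 3 TgSpi1FA-/- preleukaemic libraries (exact permutation p = 0.0286, adjusted p = 0.129). The summed list itself overlapped between the groups in both models, at 6536 to 6888 CPM in TgSpi1FA-/- preleukaemic and 4789 to 6819 CPM in TgSpi1FA-/- leukaemic cells, and at 4257 to 4971 CPM in preleukaemic and 3885 to 4731 CPM in leukaemic cells of model 2. In model 2 edgeR called 0 of its 16 genes, beside 0% of all genes, so that this count could not set the list apart. Of the 16, 10 were lower, and the median log2 fold change of the list was -0.30 against -0.03 over all genes.

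Uhrf1 (chromosome 17, 56303321 to 56323486, plus strand) encodes the partner that recognises hemimethylated CpG. It was at 242 to 297 CPM in TgSpi1FA-/- preleukaemic and at 193, 303 and 323 CPM in TgSpi1FA-/- leukaemic cells, which overlapped, with a log2 fold change of -0.02 and a 95% interval from -0.48 to 0.44. In model 2 it was at 202, 174, 137.8 and 247 CPM in preleukaemic and at 157, 102 and 104 CPM in leukaemic cells. Those groups overlapped through leukemic_601, and the log2 fold change was -0.65 ± 0.26 with an adjusted p of 0.22 (edgeR). Dnmt1 over Uhrf1, as a ratio of CPM per kb within each library, was 0.911 to 1.52 in preleukaemic and 0.519 to 0.761 in leukaemic cells of model 2. It was 1.29 to 2.24 in TgSpi1FA-/- preleukaemic and 1.08 to 1.11 in TgSpi1FA-/- leukaemic cells. The groups lay apart in both models, as they did for Dnmt1 alone. This ratio was not planned in advance either. The exact permutation test gave p = 0.0286 (adjusted p = 0.129) in model 2 and p = 0.1 (adjusted p = 0.294) in model 1, each the smallest p it can give.

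**Figure D3:**
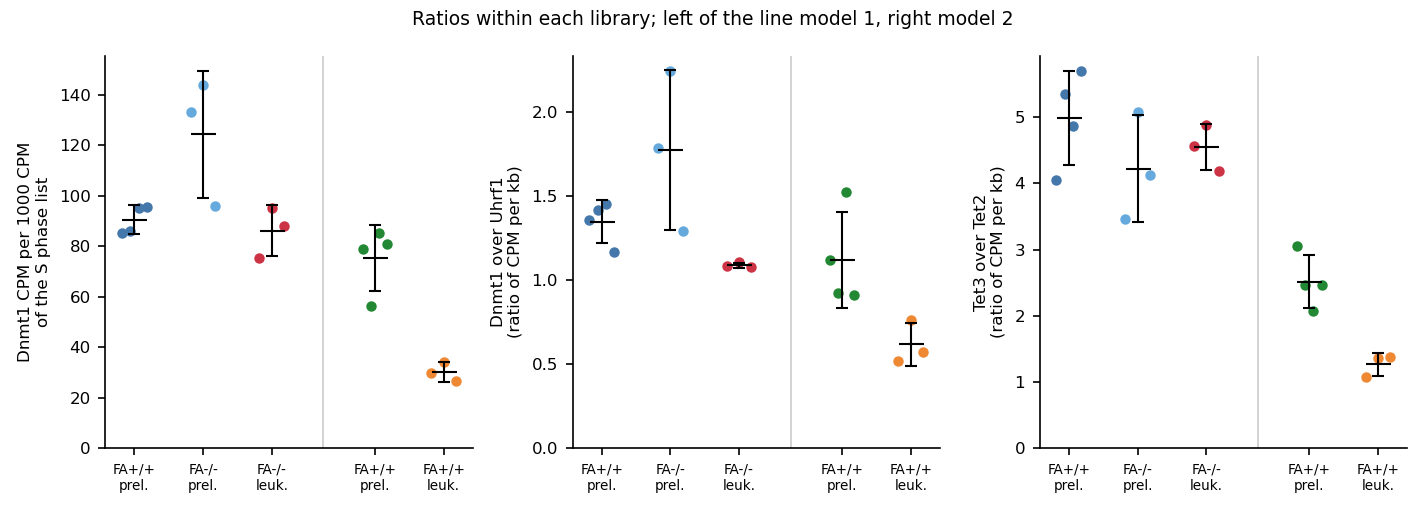
Ratios within each library, with the mean and SD of each group: Dnmt1 per 1000 CPM of the S phase list, Dnmt1 over Uhrf1 and Tet3 over Tet2, the last 2 as ratios of CPM per kb. In model 2, right of the grey line, the leukaemic libraries lie below the preleukaemic ones in all 3 panels.

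The other maintenance genes (Hells, Cdca7, Cdca7l, Uhrf2, Usp7, Pcna, Lig1 and Dppa3) gave 0 calls of 7 tested in each comparison in edgeR. Of all genes, edgeR called from 0% (model 2) to 13.3% (TgSpi1FA-/- leukaemic against preleukaemic). Dppa3 was not tested for its low counts. In TgSpi1FA-/- leukaemic against preleukaemic cells 6 of the 7 were lower, with a median log2 fold change of -0.23. Of the 7, 2 had an unadjusted p under 0.05 (edgeR), against 32.4% of all genes. DESeq2 called 1, Cdca7l, against 19.8% of all genes. Cdca7l encodes a relative of the HELLS activator CDCA7. It was at 55.4 ± 17.8 CPM in leukaemic against 125 ± 12.1 CPM in preleukaemic cells (n = 3 each, edgeR adjusted p = 0.0512). TgSpi1FA+/+ preleukaemic cells of model 1, at 36.5 to 101 CPM, overlapped the leukaemic libraries, at 39.6 to 74.7 CPM. In model 2, 5 of 7 were lower with a median of -0.33. There DESeq2 called Usp7, whose deubiquitinase stabilises DNMT1 and UHRF1, against 3.45% of all genes. Usp7 was at 139 ± 14.6 CPM in leukaemic (n = 3) and 271 ± 51.0 CPM in preleukaemic cells (n = 4, edgeR adjusted p = 0.162). Hells, the remodeller, was at 193 ± 8.87 and 167 ± 28.2 CPM in the same groups, and Pcna, the replication clamp, at 735 ± 180 and 570 ± 231 CPM, both higher in the mean and not past the test.

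Promoter sequence is shown for Dnmt1, Dnmt3b and Dnmt3l, 2 members whose groups lay apart in a comparison and the member too low to test, since CpG content is what these enzymes act on. Windows run from 250 bases before to 50 after an annotated start (RefSeq, GRCm38.p6), in all 16 windows for 9 members, and capitals mark CG pairs, 5′ to 3′ on the gene's strand. Each line gives 1 window, Dnmt1 at chr9:20952574-20952873 (minus strand), Dnmt3b at chr2:153649199-153649498 (plus strand) and Dnmt3l at chr10:78042037-78042336 (plus strand).
Dnmt1: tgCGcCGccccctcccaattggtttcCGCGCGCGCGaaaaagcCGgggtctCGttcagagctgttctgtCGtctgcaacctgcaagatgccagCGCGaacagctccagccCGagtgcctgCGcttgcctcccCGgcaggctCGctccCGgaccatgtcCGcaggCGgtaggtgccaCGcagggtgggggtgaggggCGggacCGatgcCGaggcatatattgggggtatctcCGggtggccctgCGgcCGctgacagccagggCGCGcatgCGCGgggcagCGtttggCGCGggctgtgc
Dnmt3b: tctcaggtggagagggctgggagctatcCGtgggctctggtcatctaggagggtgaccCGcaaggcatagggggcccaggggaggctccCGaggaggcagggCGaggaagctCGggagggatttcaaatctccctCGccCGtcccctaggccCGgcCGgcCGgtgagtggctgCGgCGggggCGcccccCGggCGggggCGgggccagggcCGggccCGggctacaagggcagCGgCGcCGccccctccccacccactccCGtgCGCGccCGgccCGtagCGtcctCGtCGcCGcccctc
Dnmt3l: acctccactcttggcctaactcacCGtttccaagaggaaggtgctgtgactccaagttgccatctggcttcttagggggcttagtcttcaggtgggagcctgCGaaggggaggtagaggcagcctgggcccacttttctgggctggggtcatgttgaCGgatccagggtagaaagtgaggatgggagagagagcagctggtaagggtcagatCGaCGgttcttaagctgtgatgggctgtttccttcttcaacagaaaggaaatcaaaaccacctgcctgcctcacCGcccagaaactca
For each of these genes the annotated start with the most CG pairs is shown. The Dnmt1 window held 33 CG pairs, the Dnmt3b window 30 and the Dnmt3l window 6. The median over 32851 promoter windows of the same length, which were not chosen in this way, was 7. Dnmt1 has 2 other annotated starts, whose windows held 12 and 2 CG pairs, and the other 2 windows of Dnmt3l held 4 and 3. An E2F motif (TTTCCCGC, TTTGGCGC, TTTCGCGC or TTTGCCGC on either strand) was found 2 times in this Dnmt1 window, in 1 of the 2 windows of Uhrf1 and in no window of the other 7 members. Of all windows, 2.26% held it. The PU.1 core GAGGAA, read on either strand, was found in the Dnmt3b and Dnmt3l windows shown, in another window of Dnmt1 and in both upstream windows of Dnmt3a, and 28.3% of all windows held it. The GATA motif AGATAA, in 11.2% of all windows, was found in none of the 16, and the E-box CACGTG, in 7.15%, in 1 window each of Dnmt3a, Dnmt3l and Tdg. Tet2 had the most CG pairs of the 16 windows, 57.

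Dnmt3b (chromosome 2, 153649450 to 153687730, plus strand) encodes a de novo methyltransferase. In TgSpi1FA-/- leukemic_26, leukemic_28 and leukemic_39 it was at 29.0, 23.3 and 36.1 CPM (912 to 1423 counts). In TgSpi1FA-/- preleukemic_77, preleukemic_224 and preleukemic_40 it was at 11.7, 0.292 and 0.550 CPM (357, 10 and 17 counts), and in TgSpi1FA+/+ preleukaemic cells at 5.34, 5.20, 4.52 and 11.4 CPM. The 3 leukaemic libraries were above all 7 preleukaemic libraries of model 1. Against the TgSpi1FA-/- preleukaemic group the log2 fold change was 2.82 ± 1.17, 7.04-fold higher, with an adjusted p of 0.131 (edgeR), and preleukemic_77 stood 40.1-fold above preleukemic_224 within that group. Without preleukemic_77 the log2 fold change was 6.13 with an adjusted p of 0.00991, and over all alternatives the adjusted p lay between 0.00991 and 0.231. DESeq2 called it with all libraries, at 2.86 with an adjusted p of 0.0298.

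Against TgSpi1FA+/+ preleukaemic cells the log2 fold change of Dnmt3b was 2.15 ± 1.03 with an adjusted p of 0.214 (edgeR), and 0.0326 with only the 7 compared libraries in the fit, the lowest of its alternatives, which reached 0.387. The second count table holds other counts of the same 7 mice, and there Dnmt3b was at 18.4, 17.1 and 14.4 CPM in leukemic_26, leukemic_28 and leukemic_39 and at 10.9, 2.88, 2.22 and 2.67 CPM in preleukemic_138, preleukemic_445, preleukemic_451 and preleukemic_479. The groups did not overlap in that table either. In model 2 Dnmt3b was at 7.99, 3.75, 3.23 and 3.02 CPM in preleukaemic and at 2.44, 3.10 and 1.42 CPM in leukaemic cells, where leukemic_606 overlapped. The log2 fold change was -0.95 ± 0.54, adjusted p 0.357. The interaction was 3.74 ± 1.34 on the log2 scale with an adjusted p of 0.0994 (edgeR), 0.0205 by DESeq2 and 0.00665 by edgeR without preleukemic_77, where it was 7.07, and at most 0.183 over its alternatives.

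The summed markers of these groups are given beside the values above. The 12 erythroid markers summed to 2215 to 5076 CPM in TgSpi1FA-/- leukaemic and 4995 to 5748 CPM in TgSpi1FA-/- preleukaemic cells. In model 2 they summed to 3277 to 5756 CPM in leukaemic and 5243 to 10223 CPM in preleukaemic cells, and the sums overlapped in both models. Some single markers were lower in leukaemic cells without overlap. Klf1 was at 99.2 to 158 CPM in TgSpi1FA-/- leukaemic and 292 to 351 CPM in TgSpi1FA-/- preleukaemic cells. Epor (60.9 to 121 and 135 to 160 CPM) and Hbb-bt (0.101 to 7.62 and 97.7 to 388 CPM) also lay apart. In model 2 Gata1 (229 to 230 and 290 to 396 CPM) and Hba-a1 (17.9 to 107 and 236 to 409 CPM) did. The other markers of the list overlapped in each model. The 4 megakaryocyte markers summed to 163 to 250 CPM in TgSpi1FA-/- leukaemic, 31.1 to 39.2 CPM in TgSpi1FA-/- preleukaemic and 43.6 to 187 CPM in TgSpi1FA+/+ preleukaemic cells. In TgSpi1FA-/- leukaemic cells most of that sum was Itga2b, at 92.8 to 243 CPM, against 16.1 to 21.8 CPM in TgSpi1FA-/- preleukaemic cells. Between these groups Pf4 (0.837 to 69.9 CPM and 9.19 to 23.0 CPM) and Gp9 (0.507 to 1.05 CPM and 0.0877 to 1.02 CPM) overlapped. In TgSpi1FA+/+ preleukaemic cells of model 1 the mean of Pf4, 71.4 CPM, was above that of Itga2b, 41.2 CPM. Gp1bb was at 0 in both preleukaemic groups. The stroma and endothelium markers (5 of 6 in the table) summed to 0.964 to 7.49 CPM in TgSpi1FA-/- leukaemic and 9.82 to 274 CPM in TgSpi1FA-/- preleukaemic cells, with Pdgfra, Pecam1 and Cdh5 at or under 3 counts in the latter. In the preleukaemic cells nearly all of that sum was Col1a2, at 9.77 to 273 CPM, against 0.152 to 5.57 CPM in the leukaemic cells. By contrast, Pecam1 (0.274 to 1.53 CPM against 0 to 0.0323 CPM) and Cdh5 (0.178 to 0.521 CPM against 0 CPM) were higher in leukaemic than in preleukaemic cells. In model 2 the 4 mast cell and basophil markers summed to 87.5 to 150 CPM in leukaemic and 3.71 to 58.7 CPM in preleukaemic cells. Their part in the values of the members was not tested.

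Dnmt3a (chromosome 12, 3806007 to 3914443, plus strand) encodes the other de novo methyltransferase. It was at 41.5, 63.3 and 139 CPM in TgSpi1FA-/- preleukaemic and at 109, 45.5 and 39.6 CPM in TgSpi1FA-/- leukaemic cells, which overlapped, with leukemic_39 lowest and preleukemic_40 highest of the 6. The log2 fold change was -0.32 with a 95% interval from -1.62 to 0.97. In model 2 it was at 19.1 to 76.1 CPM in preleukaemic and 16.9 to 27.8 CPM in leukaemic cells, with a log2 fold change of -0.92 ± 0.46 and an adjusted p of 0.306 (edgeR). Per length, Dnmt3b over Dnmt3a was 0.866, 1.67 and 2.97 in leukemic_26, leukemic_28 and leukemic_39, 0.921, 0.0151 and 0.0129 in preleukemic_77, preleukemic_224 and preleukemic_40, and 0.166 to 0.599 over the 7 libraries of model 2. Dnmt3l (chromosome 10, 78041947 to 78063622, plus strand), which encodes the inactive cofactor used in germ cells, had 4 and 7 counts in leukemic_28 and leukemic_39, 1 count each in preleukemic_138 and leukemic_601, and 0 in the other 13 libraries. The 3-count limit lay at 0.0742 to 0.0985 CPM per library and covers counting error only. Antisense genes annotated across Dnmt3a and Dnmt3b (Dnmt3aos and Dnmt3bos) had at most 5 and 3 counts in a library.

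Among the oxidases, no group difference passed the test in edgeR. Tet3 (chromosome 6, 83362373 to 83459084, minus strand) was at 163 to 207 CPM in TgSpi1FA-/- preleukaemic and 120 to 174 CPM in TgSpi1FA-/- leukaemic cells, with a log2 fold change of -0.30 ± 0.16 and an adjusted p of 0.232 (edgeR). In model 2 it was at 103, 68.0, 35.2 and 137 CPM in preleukaemic and 62.7, 55.1 and 30.7 CPM in leukaemic cells. These overlapped, and the log2 fold change was -0.80 ± 0.47, adjusted p 0.375. Tet2 (chromosome 3, 133463679 to 133545139, minus strand) was at 17.1 to 56.4 CPM and 22.6 to 59.2 CPM in the same groups, with a log2 fold change of 0.27 and a 95% interval from -0.79 to 1.33. In model 1 its log2 fold change between TgSpi1FA-/- leukaemic and preleukaemic cells was -0.43 ± 0.22, adjusted p 0.209. The ratio of Tet3 over Tet2 per kb within each library was not planned in advance. In model 2 it was 2.08 to 3.05 in preleukaemic and 1.07 to 1.37 in leukaemic cells (exact permutation p = 0.0286, the smallest that 35 arrangements can give, adjusted p = 0.129). In model 1 that ratio was 3.46 to 5.08 in TgSpi1FA-/- preleukaemic and 4.19 to 4.88 in TgSpi1FA-/- leukaemic cells, which overlapped.

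Tet1 (chromosome 10, 62804570 to 62908996, minus strand) was scarce, with 0 to 245 counts per library. It was at 0.125, 0.190, 0.961 and 1.05 CPM in TgSpi1FA+/+ preleukemic_445, preleukemic_479, preleukemic_451 and preleukemic_138, at 0.952, 3.74 and 2.88 CPM in TgSpi1FA-/- preleukemic_77, preleukemic_224 and preleukemic_40, and at 0.904, 2.33 and 6.21 CPM in TgSpi1FA-/- leukemic_26, leukemic_28 and leukemic_39. TgSpi1FA-/- libraries were the higher ones, with preleukemic_77 and leukemic_26 within the range of TgSpi1FA+/+. The log2 fold change of TgSpi1FA-/- over TgSpi1FA+/+ preleukaemic cells was 2.11 ± 0.90, 4.31-fold, with an unadjusted p of 0.0437 and an adjusted p of 0.564 (edgeR). Leukaemic over TgSpi1FA+/+ preleukaemic cells gave 2.43 ± 0.91 with an adjusted p of 0.126 in edgeR and 0.0341 in DESeq2, the lowest of its alternatives, which reached 0.52. The second table had Tet1 at 0.803, 4.36 and 4.29 CPM in leukemic_26, leukemic_28 and leukemic_39 and at 0.0165 to 2.99 CPM in the 4 preleukaemic mice, which overlapped. In model 2 it was at 0.346 to 1.36 CPM in preleukaemic and 0 to 0.590 CPM in leukaemic cells, adjusted p 0.489 (edgeR).

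**Figure D4:**
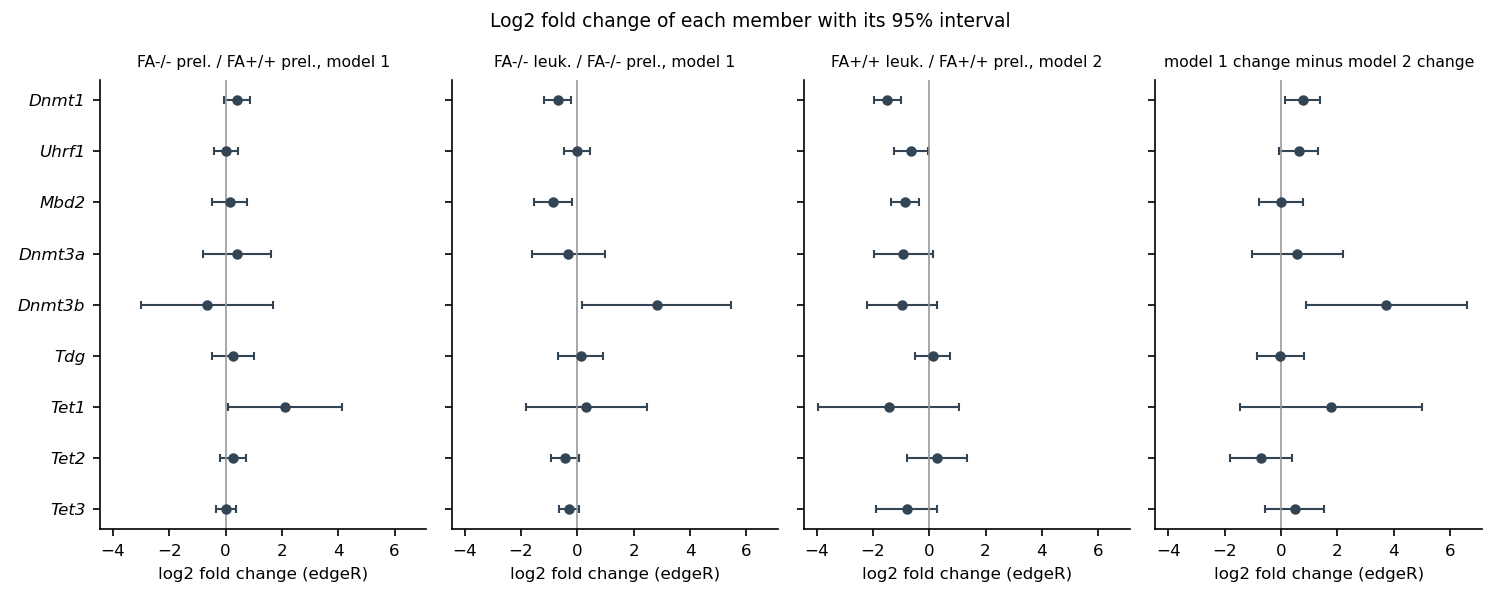
Log2 fold change of the 9 tested members from edgeR with 95% intervals, in 4 panels: TgSpi1FA-/- over TgSpi1FA+/+ preleukaemic and TgSpi1FA-/- leukaemic over preleukaemic in model 1, leukaemic over preleukaemic in model 2, and the model 1 change minus the model 2 change. In model 2, 7 of 9 points lie below 0 with a median of -0.86, and the widest intervals are those of Dnmt3b and Tet1.

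Tdg (chromosome 10, 82629828 to 82650799, plus strand) encodes the glycosylase that removes thymine from G:T pairs and oxidised cytosine. Its level could not be set between the models. The model 1 table gave it 41 to 96 counts per library (1.33 to 2.46 CPM), and model 2 gave 882 to 1657 counts (21.8 to 41.8 CPM). For the 7 mice that are in both tables of model 1, mean Tdg was 1.91 CPM in the first table and 35.03 CPM in the second, 18.3-fold more. Of 8698 genes with a mean of at least 10 CPM in the second table, 155 (1.78%) were at least 8-fold lower in the first. The cause was not tested. Within model 1, TgSpi1FA-/- leukaemic cells (2.00 to 2.45 CPM) were above TgSpi1FA+/+ preleukaemic cells (1.47 to 1.95 CPM) with an adjusted p of 0.489 (edgeR), and in the second table the groups overlapped. In model 2 Tdg was at 21.8 to 41.8 CPM and 31.0 to 34.7 CPM, with a log2 fold change of 0.12 and a 95% interval from -0.49 to 0.73.

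**Figure D5:**
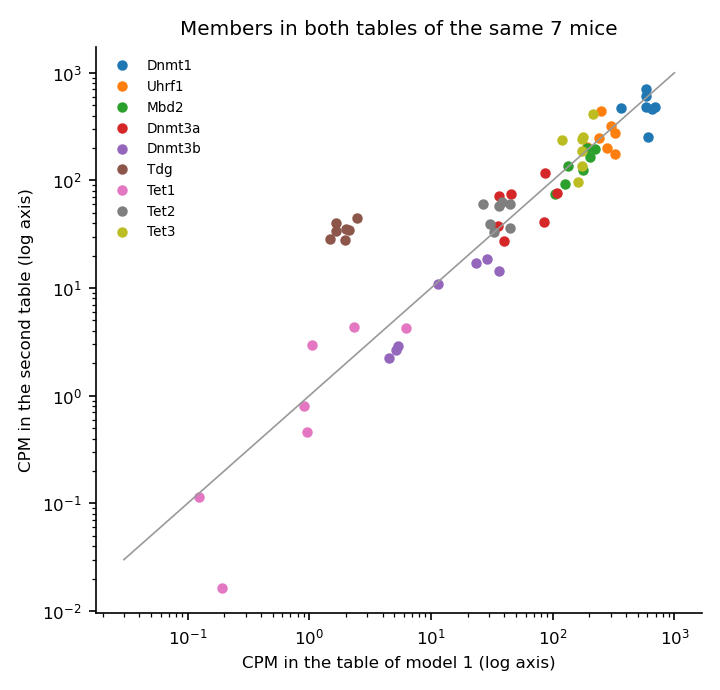
CPM of the 9 tested members in the first and the second table of the same 7 mice of model 1, both on log axes; each point is 1 mouse and the line marks equal values. Tdg lies well above the line (18.3-fold in the mean), whereas the means of the other members differ by at most 1.66-fold.

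Mbd2 (chromosome 18, 70568189 to 70626131, plus strand), the methyl-CpG reader of NuRD, was at 112, 271 and 281 CPM in TgSpi1FA-/- preleukemic_77, preleukemic_224 and preleukemic_40 and at 126, 134 and 105 CPM in TgSpi1FA-/- leukemic_26, leukemic_28 and leukemic_39. The groups overlapped through preleukemic_77 alone. The log2 fold change was -0.87 ± 0.30, 1.82-fold lower, with an adjusted p of 0.081 (edgeR). Without preleukemic_77 it was -1.17 with an adjusted p of 0.0151, the lowest of its alternatives, which reached 0.225. TgSpi1FA+/+ preleukaemic cells were at 193, 203, 177 and 224.02 CPM, above all 3 leukaemic libraries, with a log2 fold change of -0.71 ± 0.28 and an adjusted p of 0.141. With only the 7 compared libraries in the fit the adjusted p was 0.0354, the lowest of its alternatives, which reached 0.357. In the second table the means were 100 ± 31.2 CPM in leukaemic (n = 3) and 171 ± 33.6 CPM in preleukaemic cells (n = 4), and the groups overlapped.

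In model 2, Mbd2 was at 148, 171, 160 and 189 CPM in preleukaemic and at 112, 96.5 and 67.8 CPM in leukaemic cells. The groups did not overlap, with a log2 fold change of -0.86 ± 0.21, 1.81-fold lower, an unadjusted p of 0.00404 and an adjusted p of 0.162 (edgeR). The interaction of Mbd2 was -0.01 on the log2 scale with a 95% interval from -0.80 to 0.77. Over the 9 tested members of model 2, 7 were lower and 2 higher in leukaemic cells, with a median log2 fold change of -0.86 against -0.03 over all genes. In model 1, TgSpi1FA-/- leukaemic against preleukaemic, 6 were lower and 3 higher with a median of -0.30 against -0.00 over all genes, and TgSpi1FA-/- against TgSpi1FA+/+ preleukaemic gave 8 higher and 1 lower with a median of 0.25. The interaction had a median of 0.58, with 6 positive and 3 negative.

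Among other methyl-CpG readers, Zbtb38 fell in TgSpi1FA-/- leukaemic against preleukaemic cells. It encodes a zinc finger protein that binds methylated CpG and represses transcription, and was at 28.1, 25.3 and 23.7 CPM in leukaemic and 60.2, 74.7 and 77.9 CPM in preleukaemic cells (log2 fold change -1.47 ± 0.19, adjusted p 0.00536, edgeR). It was called in 6 of 6 fits that left out a mouse. It also fell against TgSpi1FA+/+ preleukaemic cells, by 1.13 on the log2 scale (adjusted p 0.0152), where it was called in 5 of 7 fits with a mouse left out. In model 2 Zbtb38 had a log2 fold change of -0.98, in the same direction. It was not called there, where edgeR called 0% of all genes, so that the missing call does not set the models apart.

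After TDG, the excision genes gave 1 call of 11 in TgSpi1FA-/- leukaemic against preleukaemic cells, where 13.3% of all genes were called. Smug1, a uracil-DNA glycosylase, rose from 13.7 to 18.4 CPM to 29.7 to 38.8 CPM (log2 fold change 1.09 ± 0.29, adjusted p 0.0393, edgeR), and was called in 0 of 6 fits with a mouse left out. The interaction, which called 4.61% of all genes, called Parp1, the strand-break sensor, with a positive sign (1.497 ± 0.40, adjusted p 0.0484) and Polb, the gap-filling polymerase of base excision repair, with a negative sign (-1.23 ± 0.21, adjusted p 0.0285). Polb was at 66.4 to 74.1 CPM in leukaemic and 40.5 to 46.2 CPM in preleukaemic cells of model 2, and at 32.5 to 41.2 CPM and 46.4 to 58.7 CPM in the TgSpi1FA-/- groups of model 1. In neither model did the groups overlap. With a mouse left out the interaction was called in 2 of 13 fits for Parp1 and 8 of 13 for Polb.

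Among TET partners and deamination genes, 3 of 8 tested were called in TgSpi1FA-/- leukaemic against preleukaemic cells, again against 13.3% of all genes. Gadd45b, a stress gene linked to active demethylation, rose from 0.460, 0.263 and 1.26 CPM to 13.8, 5.65 and 6.49 CPM (log2 fold change 3.70 ± 0.68, adjusted p 0.0141, edgeR), and was called in 6 of 6 such fits. Cxxc5, a CXXC protein that binds unmethylated CpG, rose (5.94 ± 1.63, adjusted p 0.0419), but leukemic_26 at 0.904 CPM lay within the range of the preleukaemic libraries (0.0970 to 1.29 CPM), while leukemic_28 and leukemic_39 were at 24.4 and 74.9 CPM. It was called in 1 of 6 fits with a mouse left out. Apobec1, a cytidine deaminase known for RNA editing, fell from 16.9 to 33.1 CPM to 2.21 to 9.59 CPM (-2.47 ± 0.58, adjusted p 0.027), and was called in 2 of 6. The interaction called Cxxc5 (7.56 ± 1.93, adjusted p 0.0427), in 4 of 13 fits with a mouse left out.

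Of 16 genes that supply the methyl donor or 2-oxoglutarate, 2 rose and 2 fell in TgSpi1FA-/- leukaemic against preleukaemic cells, beside 13.3% of all genes called. Shmt1 (1.39 ± 0.28, adjusted p 0.0188) and Idh1 (1.15 ± 0.33, adjusted p 0.0472) were higher, and Mthfd1 (-1.48 ± 0.27, adjusted p 0.014) and Mat2b (-1.08 ± 0.16, adjusted p 0.00769) were lower, all in edgeR. Shmt1 and Mthfd1 encode folate enzymes, Idh1 a cytosolic isocitrate dehydrogenase and Mat2b the regulatory subunit of methionine adenosyltransferase. Mat2b was at 91.3, 110 and 118 CPM in leukaemic and 247, 197 and 228 CPM in preleukaemic cells, and was called in 6 of 6 such fits. It also fell against TgSpi1FA+/+ preleukaemic cells (-0.73 ± 0.15, adjusted p 0.0251), in 2 of 7 fits with a mouse left out. In model 2 it was at 228 to 488 CPM in leukaemic and 123 to 254 CPM in preleukaemic cells, and the interaction called it (-1.73 ± 0.40, adjusted p 0.035), in 6 of 13 fits with a mouse left out. Mthfd1, Shmt1 and Idh1 were called in 4, 3 and 1 of 6 fits with a mouse left out.

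Germline genes that DNA methylation keeps silent in somatic cells were mostly too low to test. Of 12 germline genes in the table of model 1, 4 passed the filter, and 1 rose and 1 fell in TgSpi1FA-/- leukaemic against preleukaemic cells (13.3% of all genes called). Brdt, a testis bromodomain gene, rose from 0 to 6 counts per library to 21, 73 and 86 counts (3.84 ± 1.01, adjusted p 0.0372, edgeR). The fall of Sycp1, a synaptonemal complex gene, rested on preleukemic_224, with 9674 counts against 30 and 18 in preleukemic_77 and preleukemic_40 and 0 to 2 in leukaemic cells, and no fold is given. Imprinted genes formed a separate list. Of the 15 in the table, 8 were tested and 1 rose in the same comparison. Airn, the paternally expressed antisense RNA of the Igf2r locus, had 0 counts in the 3 TgSpi1FA-/- preleukaemic libraries and 158, 143 and 510 counts in the leukaemic ones, at least 73.9-fold higher when the group at 0 is set to 3 counts per library (adjusted p 0.0247). The interaction also called Airn (adjusted p 0.0298), in 5 of 13 fits with a mouse left out. Brdt and Airn were each called in 1 of 6 fits with a mouse left out.

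In the S phase and proliferation list, 1 of 16 genes, Rrm2, fell in TgSpi1FA-/- leukaemic against preleukaemic cells, against 13.3% of all genes called (-1.11 ± 0.30, adjusted p 0.0415, edgeR, in 1 of 6 fits with a mouse left out). Rrm1 fell in the comparison with TgSpi1FA+/+ preleukaemic cells, where 7.01% of all genes were called (-0.59 ± 0.10, adjusted p 0.0152, in 3 of 7 fits). Both encode subunits of ribonucleotide reductase, which makes deoxynucleotides. In the comparison of TgSpi1FA-/- with TgSpi1FA+/+ preleukaemic cells, and in model 2, edgeR called 0 genes of every list. Of all genes it called 0.00747% and 0%. At an unadjusted p under 0.05 (edgeR) the first had 12 of 78 tested listed genes, against 8.65% of all genes. The second had 19 of 75, against 19.9%. DESeq2 called 1 in the first (Grb10), against 1.76%, and 4 in the second (Usp7, Polb, Ahcyl2 and Airn), against 3.45%. Airn had 163 counts in preleukemic_633 and 0 to 21 in the other libraries of model 2.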

How the data were processed

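Each library was prepared from 1 mouse with a stranded poly(A) kit, so that p-values measure the spread between mice. In these, preleukemic_445 and preleukemic_479 counted as 2 mice. Per the labels and the submitters' processing notes, the authors used bcl2fastq 2.17.1.14, STAR 2.5.3a and HTSeq 0.6.1p1 on mm10 (GRCm38) and deposited raw counts per gene. The annotation release and the strand setting are not given in the sources used here. The 2 models were in separate tables. A second table of 7 model 1 mice, at 35497594 to 171572736 counts, served as an alternative.

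Here counts were tested with edgeR 4.0.16 (R 4.3.3, TMM, filterByExpr, quasi-likelihood F-test), on the 10 libraries of model 1, the 7 of model 2, and all 17 for the interaction (22088 shared genes). Benjamini-Hochberg adjustment ran over all genes tested. The biological coefficient of variation was 0.529 in model 1 and 0.587 in model 2. DESeq2 1.42.0, other size factors and filters, fits on the compared groups, preleukemic_445 and preleukemic_479 summed, and each mouse left out in turn were alternatives. Scripts were tested on simulated data. The members and gene lists were chosen with earlier results of these data known. The members were named in each comparison, and a listed gene where edgeR called it, at most 5 per list and comparison by absolute log2 fold change. Listed genes that DESeq2 alone called, Hells, Pcna, H19 and Grb10 were named after their values had been seen. The counts over the list of methyl-CpG readers are not reported here.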

Additional observations from a re-analysis of the deposited data

Results flagged for a closer look

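In 3 of 18 tests of groups of 4 mice, 1 library stood far from the other 3, with a gap over the group's range above Dixon's 95% critical value, which chance passes in about 1 in 20 groups. Dnmt3b in TgSpi1FA+/+ preleukemic_138 of model 1 was at 11.4 CPM (gap ratio 0.882) and Dnmt3b in preleukemic_633 of model 2 at 7.99 CPM (gap ratio 0.853), each the highest of its group. Tet3 in TgSpi1FA+/+ preleukemic_451 was at 213 CPM (gap ratio 0.887), also the highest. In the second table Dnmt3b of preleukemic_138, at 10.9 CPM, was again above the other 3 preleukaemic mice, at 2.22 to 2.88 CPM.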

How the results depend on the processing

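Of 638 member log2 fold changes under alternatives, 570 kept their direction and their side of the threshold, 58 reversed, 10 passed the threshold where the reported value did not, and 0 did the opposite. The reversals fell in 16 of 45 results. No paired analysis was possible because no mouse number is shared between groups.

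DESeq2 called 1 member each in TgSpi1FA-/- leukaemic against preleukaemic, in TgSpi1FA-/- leukaemic against TgSpi1FA+/+ preleukaemic, in model 2 and in the interaction, and with only the compared groups the second of these had 2. With a mouse left out the members called were 0 to 2 in the first, 2 without preleukemic_77, and 0 to 1 in the interaction, 1 without preleukemic_77 or leukemic_26.

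In TgSpi1FA-/- leukaemic against preleukaemic, Uhrf1 turned to 0.026 with DESeq2 size factors, 0.021 with DESeq2 and 0.012 with only the compared groups. In TgSpi1FA-/- against TgSpi1FA+/+ preleukaemic, Uhrf1 turned to -0.032 with preleukemic_445 and preleukemic_479 summed, and Tet3 to -0.00498 with DESeq2 size factors, -0.00486 with DESeq2 and -0.011 with the sum. In TgSpi1FA-/- leukaemic against TgSpi1FA+/+ preleukaemic, Dnmt3a turned to -0.089 with the sum and -0.16 in the second table, Tet2 to 0.51 in the second table, and Uhrf1 to 0.029 with DESeq2 size factors, 0.00422 with no filter, 0.019 with a filter of 1 CPM in 3 libraries and 0.024 with DESeq2. In the interaction, Tdg turned to 0.036 with DESeq2 size factors and 0.034 with DESeq2, and Mbd2 to 0.037 and 0.036. The cause was not tested.

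With a mouse left out, these ranges crossed 0. In TgSpi1FA-/- leukaemic against preleukaemic they were -0.93 to 0.30 for Dnmt3a, -0.14 to 0.18 for Uhrf1, -0.63 to 0.76 for Tet1 and -0.12 to 0.28 for Tdg. In TgSpi1FA-/- against TgSpi1FA+/+ preleukaemic they were -0.21 to 0.73 for Dnmt3a, -0.041 to 0.12 for Uhrf1, -0.069 to 0.096 for Tet3 and -0.057 to 0.46 for Mbd2. In TgSpi1FA-/- leukaemic against TgSpi1FA+/+ preleukaemic they were -0.51 to 0.37 for Dnmt3a and -0.13 to 0.19 for Uhrf1. In model 2 they were -0.085 to 0.63 for Tet2 and -0.00189 to 0.33 for Tdg. In the interaction they were -0.029 to 1.19 for Dnmt3a, -0.27 to 0.14 for Tdg and -0.33 to 0.18 for Mbd2.

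Counts of called genes over the whole table moved more. They were 1782, 1, 939, 0 and 673 in edgeR, in the order TgSpi1FA-/- leukaemic against preleukaemic, TgSpi1FA-/- against TgSpi1FA+/+ preleukaemic, TgSpi1FA-/- leukaemic against TgSpi1FA+/+ preleukaemic, model 2 and interaction, and 3100, 250, 2246, 470 and 2029 in DESeq2. With a mouse left out they ranged over 414 to 2319, 1 to 16, 53 to 1911, 0 to 1 and 1 to 1359. Without a filter the second was 4 and the fifth 279. The third was 122 with preleukemic_445 and preleukemic_479 summed and 267 in the second table. Groups of 3 and 4 mice limit the precision of all values, and Tet1, Dnmt3l and, in model 1, Tdg are also limited by low counts.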

Other observations

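The imprinted transcripts H19 and Grb10 were singled out after their values had been seen. H19, a maternally expressed noncoding RNA, was at 0 to 189 CPM in TgSpi1FA-/- leukaemic cells (mean 78.6 CPM, n = 3). It was at 0 CPM in all preleukaemic libraries of model 1 and in the leukaemic libraries of model 2, and reached at most 0.151 CPM in preleukaemic cells of model 2. Grb10, which encodes an adaptor of growth factor receptors, was at 0.127 to 1091 CPM in TgSpi1FA-/- leukaemic, 0 to 164 CPM in TgSpi1FA-/- preleukaemic and 0.032 to 0.218 CPM in TgSpi1FA+/+ preleukaemic cells, and reached at most 0.544 CPM in model 2. Libraries of 1 group thus ranged from absent to abundant. Grb10 was not called in edgeR. H19 did not pass the filter on low counts, so that edgeR did not test it.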
